A study of Mus musculus with 6 samples.

Results

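Fibcd1, Prox1, Zbtb20, Wfs1 and Nr3c2 mark the fields of the mouse hippocampus, and their reads were followed in the cerebral cortex of newborn mice with and without a functional Fezf2 gene. The 5 genes were picked by symbol from a table of 23016 entries, and each symbol matched 1 entry. The groups were 3 Fezf2 KO pups (Fezf2-/-) and 3 wild type pups (Fezf2+/+), all at postnatal day 0 and all bred from heterozygous parents, with 1 library of total RNA per brain. Litter m1 supplied libraries 1 and 2 of each genotype, and litter m2 supplied library 3. The Fezf2 allele is given only as a knockout, and the labels do not say whether the dissected tissue included the hippocampus. Values are normalised read counts, that is, reads of a gene divided by 1 size factor per library, and they are not scaled to gene length, so levels are compared between libraries and not between genes.

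The hippocampus is the medial edge of the cortex and is divided into the pyramidal fields CA1, CA2 and CA3, the dentate gyrus with its granule cells, and the subiculum. Each field is recognised by transcription factors and receptors that its neurons switch on before or shortly after birth, and few of these genes belong to the hippocampus alone. Fibcd1 encodes a membrane receptor with a fibrinogen-like domain that binds chitin and other acetylated sugars, and it marks CA1 pyramidal neurons. Wfs1 encodes wolframin, a membrane protein of the endoplasmic reticulum that is used as a CA1 marker and is also expressed in striatal neurons. Nr3c2 encodes the mineralocorticoid receptor, which binds corticosterone and is abundant in hippocampal pyramidal neurons, above all in CA2. Prox1 is a homeobox transcription factor that dentate granule cells need for their identity and that interneurons of the caudal ganglionic eminence also use. Zbtb20 is a zinc finger repressor of the developing CA fields and of astrocytes.

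Promoters of 3 members are shown because they stand at the ends of the range of base composition among the 5 genes and include the members with the highest and the lowest change. They are RefSeq windows on GRCm38.p6 from 250 bases before to 50 bases after a gene start, written 5′ to 3′ on the gene's strand. Capitals mark the GC box GGGCGG and the element AGAACA, which steroid hormone receptors recognise, on either strand. Fibcd1 is at chr2:31845956-31846255 on the minus strand, Wfs1 at chr5:36988933-36989232 on the minus strand and Zbtb20 at chr16:43247034-43247333 on the plus strand.
Fibcd1: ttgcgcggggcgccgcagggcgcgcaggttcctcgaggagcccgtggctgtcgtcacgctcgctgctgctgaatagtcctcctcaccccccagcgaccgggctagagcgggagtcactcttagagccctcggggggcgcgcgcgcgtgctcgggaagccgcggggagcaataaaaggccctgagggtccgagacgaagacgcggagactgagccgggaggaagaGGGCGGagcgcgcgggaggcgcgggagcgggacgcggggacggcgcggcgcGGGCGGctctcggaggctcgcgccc
Wfs1: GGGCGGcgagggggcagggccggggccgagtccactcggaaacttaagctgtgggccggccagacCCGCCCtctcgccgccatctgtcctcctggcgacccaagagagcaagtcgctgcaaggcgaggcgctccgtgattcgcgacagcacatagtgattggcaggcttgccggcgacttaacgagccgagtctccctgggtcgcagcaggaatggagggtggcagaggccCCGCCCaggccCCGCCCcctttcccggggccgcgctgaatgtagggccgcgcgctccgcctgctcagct
Zbtb20: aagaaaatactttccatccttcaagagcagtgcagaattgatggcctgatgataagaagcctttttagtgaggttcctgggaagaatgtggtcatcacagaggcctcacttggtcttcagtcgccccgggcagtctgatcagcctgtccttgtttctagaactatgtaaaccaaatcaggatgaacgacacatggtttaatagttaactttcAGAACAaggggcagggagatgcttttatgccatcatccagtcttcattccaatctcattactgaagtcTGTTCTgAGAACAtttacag

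The Fibcd1 window held 46 CpG dinucleotides, more than 98.4% of the 32851 promoter windows in the table, and 2 GC boxes. The Wfs1 window held 30 CpG and 4 GC boxes, whereas the Zbtb20 window held 3 CpG and 0 GC boxes. The median over all windows was 7 CpG, and 35.7% of them held a GC box. Nr3c2 had 17 CpG and 3 GC boxes, and the 2 windows listed for Prox1 had 25 and 14 CpG with 2 and 1 GC boxes. The element AGAACA occurred 3 times in the Zbtb20 window and 0 times in those of the other members, and 19.0% of all windows held it. The GC box and AGAACA do not overlap each other in these windows. The elements are matches of letters, and the expression data do not bear on whether a factor binds there.

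Fezf2 itself, which encodes a transcription factor of subcortically projecting neurons, had 1989, 1377 and 1533 normalised reads in the Fezf2 KO libraries 1 to 3, compared with 5030, 5928 and 5396 in wild type libraries 1 to 3. The fit was limma on log2(value + 1), with p-values adjusted by Benjamini-Hochberg over 17557 tested entries, and Fezf2 fell in it (log2 -1.75, SE 0.13, limma adjusted p = 0.000832). Total gene reads ranged from 47169514 to 52872577 in Fezf2 KO libraries and from 44978380 to 49139392 in wild type libraries. Genes of cortical glutamatergic neurons were abundant in every library, with 7 of 7 detected and a summed value of 115979 to 132833 in Fezf2 KO cortex and 107712 to 115160 in wild type cortex.

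Fezf2 KO 1 stood apart from the other libraries. Its 6 choroid plexus genes summed to 9745, against 137 and 131 in Fezf2 KO 2 and 3 and 65.3 to 134 in wild type libraries. Ttr, the transthyretin gene of the choroid plexus, had 8950 normalised reads in Fezf2 KO 1, 65.6 and 68.0 in the other Fezf2 KO libraries, and 9.45 to 15.7 in wild type. The 11 striatal neuron genes were also lowest there: the mean of their centred log2 values was -1.34, 0.25 and -0.65 in the Fezf2 KO libraries 1 to 3, compared with 0.83, 0.56 and 0.34 in wild type libraries 1 to 3. Each member is therefore given with and without Fezf2 KO 1. In RNA from whole tissue, fewer cells of a type and less RNA per cell cannot be told apart. Wild type 2 differed from all other libraries in Xist, with 3782 normalised reads against at most 2.81 elsewhere. The bearing of this difference on the members was not tested.

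All 5 members were above the minimum of 10 normalised reads in all 6 libraries, so all were tested. None of the 5 passed the limma test, in which 0.712% of all tested entries passed, and 2 of 5 (Fibcd1 and Prox1) had an unadjusted p under 0.05, against 9.03% of all tested entries. EdgeR on the recovered reads called 0 of 5, with 0.689% called among all entries, and DESeq2 called 1 of 5, Fibcd1, with 2.3% called. Fezf2 KO libraries lay wholly above wild type libraries for 2 of 5 members, Fibcd1 and Prox1, and below for 0. Among all tested entries 14.5% did not overlap between genotypes, and 7.6% lay above in Fezf2 KO.

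**Figure D1:**
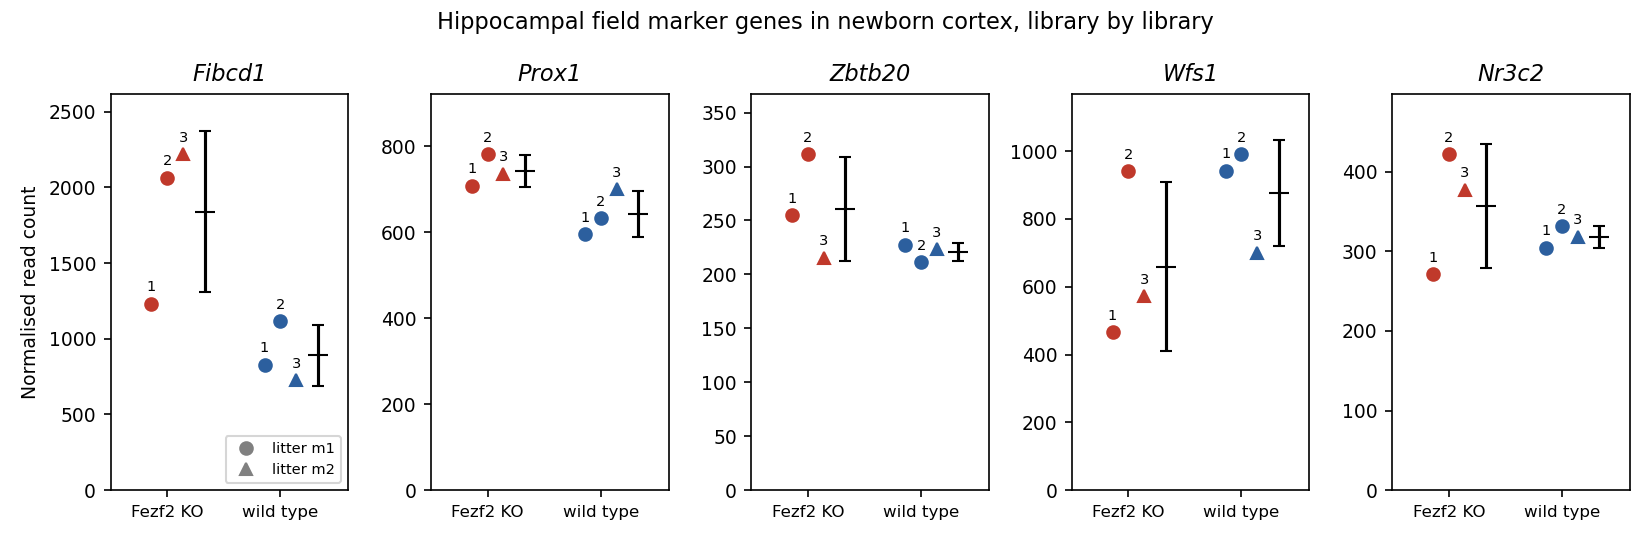
Normalised read count of each member in each library (y axis, from 0), Fezf2 KO in red and wild type in blue, with the replicate number above each point, circles for litter m1, triangles for litter m2, and mean ± SD (n = 3) in black. Fibcd1 lay between 1230 and 2220 in Fezf2 KO and between 725 and 1116 in wild type, and the other members overlapped or nearly touched.

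Fibcd1 was the member with the largest difference. It had 1230, 2062 and 2220 normalised reads in the Fezf2 KO libraries 1 to 3, compared with 827, 1116 and 725 in wild type libraries 1 to 3. Every Fezf2 KO library was above every wild type library, but Fezf2 KO 1 was close to wild type 2 and far below the other Fezf2 KO libraries. The means were 1837 ± 532 in Fezf2 KO and 889 ± 203 in wild type (SD, n = 3 each), a ratio of 2.07. On the log2(value + 1) scale the difference was 1.02 (SE 0.23, 95% interval 0.49 to 1.56), and a difference as large in either direction was rare, since 1.23% of tested entries exceeded it. It did not pass over all entries (unadjusted p = 0.00226, limma adjusted p = 0.133).

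For Fibcd1 the call depended on the fit and on Fezf2 KO 1. DESeq2 on the recovered reads gave log2 1.04 (SE 0.31, adjusted p = 0.0356), while edgeR gave 1.04 with an adjusted p of 0.141. Without Fezf2 KO 1 limma gave log2 1.29 (SE 0.17, adjusted p = 0.024), in a fit that called 0.613% of its entries. Leaving out any other library gave log2 values of 0.86 to 1.20 and limma adjusted p of 0.143 to 0.384. Fezf2 KO libraries were higher in each litter, by log2 0.73 in litter m1 (2 libraries per genotype) and by 1.61 in litter m2 (1 per genotype). When limma also took the striatal mean of each library as a term, the difference was larger, log2 1.52 (SE 0.30, adjusted p = 0.164). That mean was lower in every Fezf2 KO library than in every wild type library, so it is confounded with genotype. The high choroid plexus values of Fezf2 KO 1 stood beside the lowest Fibcd1 value of Fezf2 KO, and their part in it was not tested.

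Wfs1, the other CA1 marker, had 465, 940 and 572 normalised reads in the Fezf2 KO libraries 1 to 3, compared with 941, 991 and 700 in wild type libraries 1 to 3. Fezf2 KO 2 lay among the wild type libraries and Fezf2 KO 1 and 3 lay below all of them. The means were 659 ± 249 in Fezf2 KO and 877 ± 156 in wild type (SD, n = 3 each), with a log2 difference of -0.46 (SE 0.25, 95% interval -1.03 to 0.11, limma adjusted p = 0.673). The spread among Fezf2 KO brains was 37.8% of their mean, while counting error alone would give about 3.39%, so the number of reads did not limit the precision.

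Wfs1 and the striatal neuron genes gave the Fezf2 KO libraries the same order, which Prox1 and Nr3c2 also had. In wild type the orders differed: Wfs1 was highest in library 2 and the striatal mean in library 1. Wfs1 was lowest in library 1, next in library 3 and highest in library 2, as were the striatal genes, which striatal projection neurons use for dopamine and peptide signalling. Of the 11 striatal genes 1 fell and 0 rose, against 0.308% of all tested entries lower and 0.404% higher, and 10 of the 11 had lower means of log2 values in Fezf2 KO. Among all 17557 tested entries 8962 had higher means. Ppp1r1b, which encodes the phosphatase inhibitor DARPP-32, fell (log2 -1.32, limma adjusted p = 0.00594), and Penk, the enkephalin gene, had log2 -1.34 (limma adjusted p = 0.133) and passed DESeq2 (adjusted p = 0.000871). Six3 had log2 -1.37 and Tac1 -1.64, and neither passed. With Fezf2 KO 2 left out Penk, Six3, Tac1, Adora2a, Drd2 and Ebf1 also passed, and with Fezf2 KO 1 left out they did not. The summed value of the list was 5519 to 10838 in Fezf2 KO and 12859 to 16714 in wild type, and 0 of its genes were at 0. The striatal mean was at most 0.25 in Fezf2 KO libraries and at least 0.34 in wild type libraries, so it is confounded with genotype. With it as a further term in limma, the difference of Wfs1 turned to 0.30 (SE 0.17, adjusted p = 0.752). Whether striatal cells had a part in the Wfs1 values was not tested. Without Fezf2 KO 1 the difference of Wfs1 was -0.24 (limma adjusted p = 0.899), and without Fezf2 KO 2 it was -0.75 (adjusted p = 0.138).

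**Figure D2:**
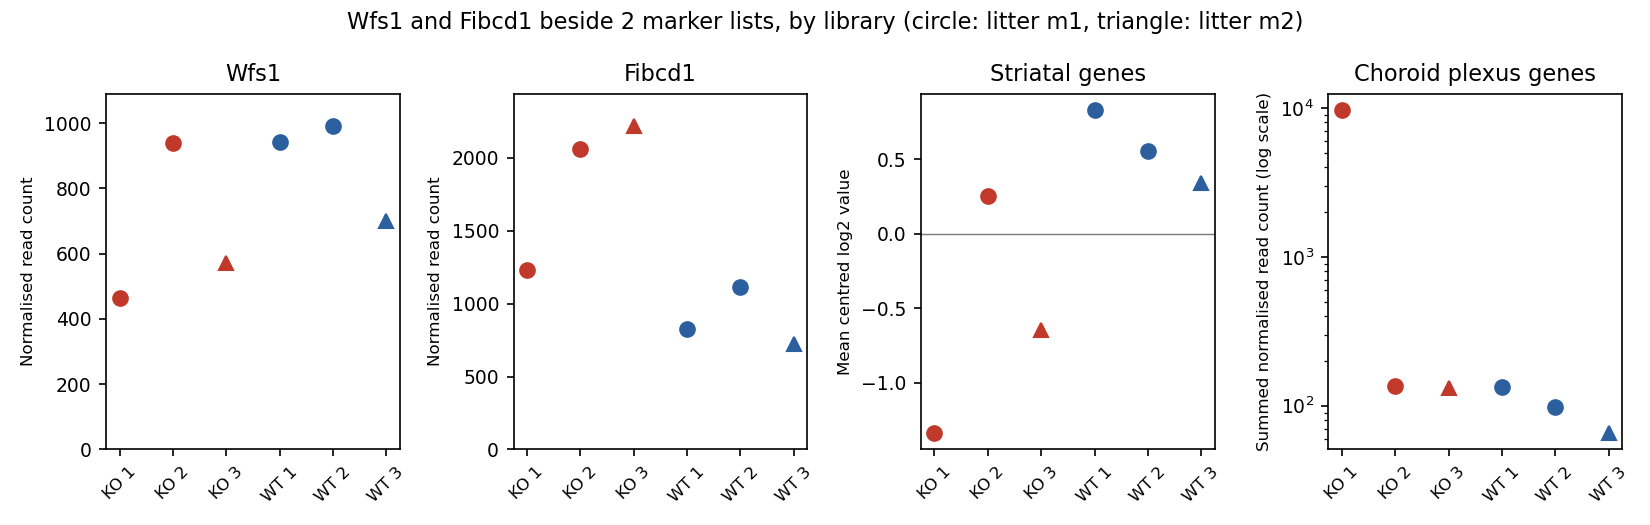
Wfs1 and Fibcd1 (normalised read count), the mean centred log2 value of 11 striatal genes, and the summed normalised read count of 6 choroid plexus genes (log axis) in each library, Fezf2 KO in red and wild type in blue. Wfs1 and the striatal mean share the order Fezf2 KO 1, 3, 2 from low to high, but their orders differ among wild type libraries. The choroid plexus sum is 9745 in Fezf2 KO 1 and at most 137 elsewhere.

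Nr3c2 had 271, 422 and 377 normalised reads in the Fezf2 KO libraries 1 to 3, compared with 304, 332 and 318 in wild type libraries 1 to 3. Fezf2 KO 1 was below all wild type libraries and Fezf2 KO 2 and 3 were above them, so the genotypes overlapped. The means were 357 ± 77.5 in Fezf2 KO and 318 ± 13.7 in wild type (SD, n = 3 each; log2 0.14, SE 0.16, 95% interval -0.22 to 0.51, limma adjusted p = 0.902). Without Fezf2 KO 1 the log2 difference was 0.33 (limma adjusted p = 0.383), without Fezf2 KO 2 it was 0.0095 (adjusted p = 0.996) and without Fezf2 KO 3 it was 0.091 (adjusted p = 0.931). With the striatal mean as a further term it was 0.54 (SE 0.18, unadjusted p = 0.0179, limma adjusted p = 0.459).

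Prox1, the granule cell factor, had 708, 782 and 736 normalised reads in the Fezf2 KO libraries 1 to 3, compared with 596, 633 and 700 in wild type libraries 1 to 3. The genotypes did not overlap, but the gap between Fezf2 KO 1 and wild type 3 was small. The means were 742 ± 37.4 in Fezf2 KO and 643 ± 52.9 in wild type (SD, n = 3 each), a ratio of 1.15. The log2 difference was 0.21 (SE 0.087, 95% interval 0.0084 to 0.41, unadjusted p = 0.0429, limma adjusted p = 0.524), and 20.7% of tested entries differed by more. Within litter m1 it was 0.28 and within litter m2 0.072. It was 0.24 without Fezf2 KO 1 (limma adjusted p = 0.536) and 0.26 with the striatal mean as a further term (adjusted p = 0.729).

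Reads near Prox1 were also counted for assembled long noncoding transcripts named after it. The entry linc-Prox1-BP had 105, 87.1 and 77.7 normalised reads in the Fezf2 KO libraries 1 to 3, compared with 65.5, 96.0 and 87.7 in wild type libraries 1 to 3 (log2 0.12, limma adjusted p = 0.933). Its genotypes overlapped, and the entries linc-Prox1-1 and linc-Prox1-2 had at most 5.16 normalised reads in any library and were not tested. In the GENCODE annotation of GRCm38, used for names and neighbours only, 2 antisense genes overlap Prox1 and 1 of them is Prox1os. No source states whether the counting used strand, and reads of Prox1 and its antisense partners cannot be told apart.

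Zbtb20 had 255, 312 and 215 normalised reads in the Fezf2 KO libraries 1 to 3, compared with 227, 211 and 223 in wild type libraries 1 to 3. Fezf2 KO 1 and 2 were above all wild type libraries, and Fezf2 KO 3 lay among the wild type libraries. The means were 261 ± 48.3 in Fezf2 KO and 221 ± 8.45 in wild type (SD, n = 3 each; log2 0.22, SE 0.14, 95% interval -0.11 to 0.55, limma adjusted p = 0.751). The log2 difference was 0.23 without Fezf2 KO 1, 0.087 without Fezf2 KO 2 and 0.35 without Fezf2 KO 3, with limma adjusted p of 0.834, 0.933 and 0.517. With the striatal mean as a further term it was 0.44 (SE 0.21, limma adjusted p = 0.664). With 242 to 347 reads per library its counting error was about 6.03%, the widest of the 5 members. The gene body of Zbtb20 also holds several shorter genes in GENCODE, so its reads are uncertain in origin. Of these, the processed pseudogene BC002163 had 2283, 990 and 1854 normalised reads in the Fezf2 KO libraries 1 to 3, compared with 1859, 1049 and 1838 in wild type libraries 1 to 3, with overlapping groups (log2 0.075, limma adjusted p = 0.984). Nr3c2 is overlapped in GENCODE as well, by Gm10649, Gm24838 and Gm23260. Gm10649, on the opposite strand, had at most 9.45 normalised reads in any library and was not tested.

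**Figure D3:**
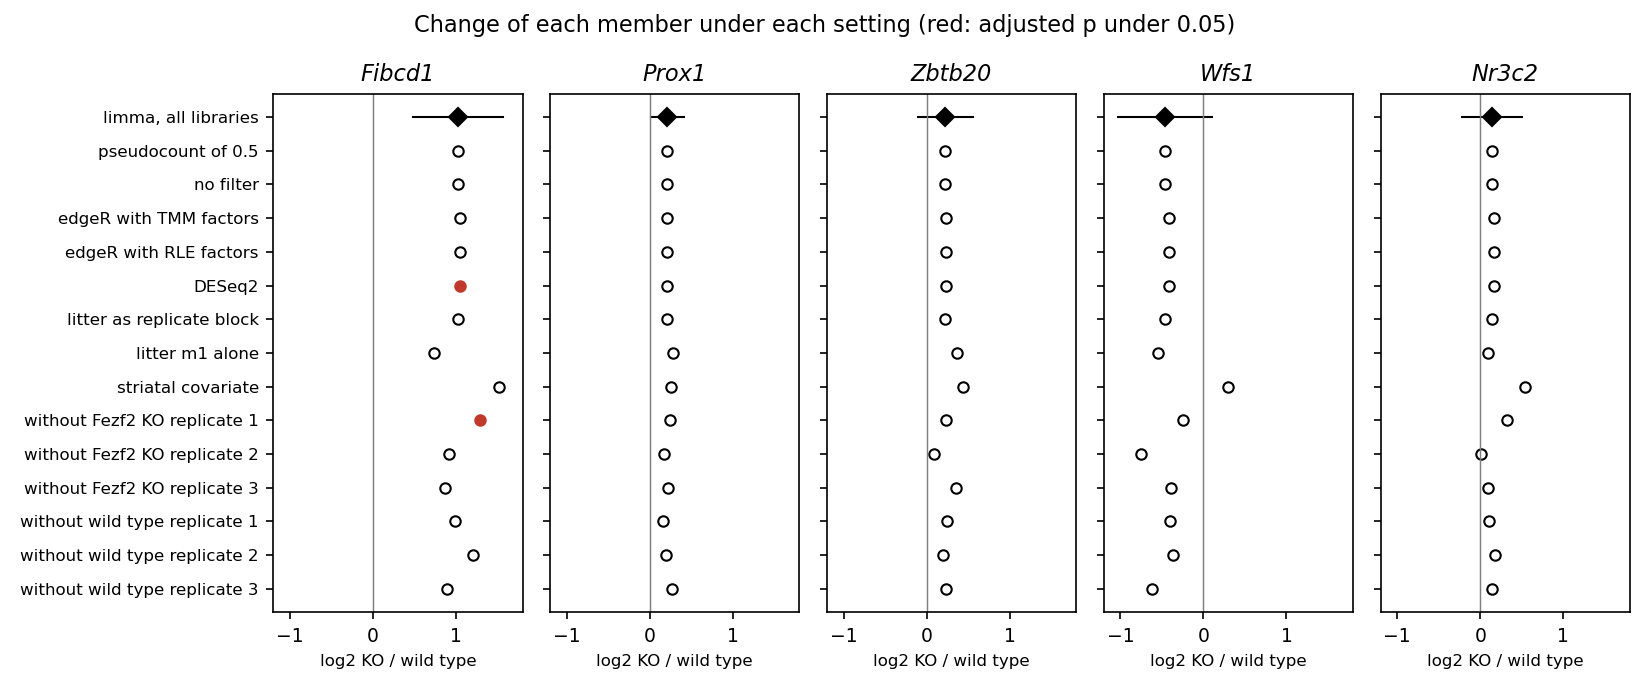
Log2 ratio of Fezf2 KO to wild type for each member (x axis) under each setting (rows), with the 95% limma interval on the top row and red points where the adjusted p is under 0.05. Fibcd1 is positive in all rows and red in 2, and Wfs1 crosses 0 only with the striatal covariate (0.30).

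Other genes of the hippocampal fields were placed in 6 lists of 50 symbols in all, the 5 members included, for CA1, CA2, CA3, dentate gyrus, subiculum and early patterning of the hippocampus. They gave 46 tested entries, of which 0 rose and 0 fell in limma, against 0.404% of all tested entries higher and 0.308% lower. With the members left out 41 entries were tested, 23 with a higher and 18 with a lower mean log2 value in Fezf2 KO, and their median log2 difference was 0.029, beside 0.0025 for all tested entries. Of these 41, 8 had an unadjusted p under 0.05 (9.03% of all tested entries did) and 11 did not overlap between genotypes (14.5% of all). EdgeR called 0 of the 46 field entries, with 0.689% called among all entries. DESeq2 called 2, Fibcd1 and Amigo2, both higher, with 2.3% called among all entries.

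Several genes of the field lists were near 0 in these libraries and were not tested. Spink8 of CA1 had at most 0.9 normalised reads in any library, Wnt8b of the medial cortical wall at most 0.81, Avpr1b of CA2 at most 6.11 and Tdo2 of the dentate gyrus at most 9.6. Pcp4, also listed for CA2, had no entry under that symbol and was not analysed here. Genes of granule cells that did pass the minimum were present in both genotypes, among them C1ql2 with 21.9, 43.1 and 41.5 normalised reads in the Fezf2 KO libraries 1 to 3, compared with 35.6, 35.8 and 19.8 in wild type libraries 1 to 3. These last 5 genes were chosen after their values were seen.

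Among 6 tested CA1 genes the median log2 difference was 0.0032, with Fibcd1 and Wfs1 at the ends of the range. Lefty1, a secreted inhibitor of Nodal signalling, had 12.2, 28.7 and 15.9 normalised reads in the Fezf2 KO libraries 1 to 3, compared with 27.1, 25.3 and 20.6 in wild type libraries 1 to 3, and the groups overlapped. Among 8 tested CA2 genes the median was 0.10. Amigo2, an adhesion protein, had 626, 590 and 700 normalised reads in the Fezf2 KO libraries 1 to 3, compared with 458, 442 and 522 in wild type libraries 1 to 3. Its groups did not overlap, and the log2 difference of 0.43 (SE 0.10) did not pass limma (adjusted p = 0.146) but passed DESeq2 (adjusted p = 0.0166). Stard5, a lipid transfer protein, had log2 -0.30 (limma adjusted p = 0.604) and Necab2, a calcium binding protein, 0.12.

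The 6 tested CA3 genes had a median log2 difference of -0.093. Cdh24, a cadherin, had log2 -0.25, Grik4, a kainate receptor subunit, had -0.22 and Bok, a BCL2 family gene, had 0.12, with limma adjusted p from 0.524 to 0.851. The 11 tested dentate gyrus entries had a median of 0.024. Npnt, the matrix protein nephronectin, had 421, 517 and 507 normalised reads in the Fezf2 KO libraries 1 to 3, compared with 584, 613 and 582 in wild type libraries 1 to 3. Its groups did not overlap, and unlike Prox1 it was on the lower side in Fezf2 KO (log2 -0.30, limma adjusted p = 0.342). Glis3, a zinc finger gene with 2 entries in the table, had log2 -0.39 and -0.42, and neither entry passed.

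The subiculum list held the widest difference of the 46 entries, that of Nts, the neurotensin gene. Nts had 14.6, 98.8 and 125 normalised reads in the Fezf2 KO libraries 1 to 3, compared with 226, 391 and 166 in wild type libraries 1 to 3. The groups did not overlap, Fezf2 KO 1 was far below the rest, and the difference did not pass (log2 -2.08, SE 0.72, limma adjusted p = 0.385). Dlk1 (0.41) and Tshz2 (-0.42) had overlapping groups. In the patterning list, 9 of 11 tested genes had a higher mean log2 value in Fezf2 KO, with a median of 0.061. Among all 17557 tested entries 8962 had a higher one. Dmrta2 and Dmrt3, related transcription factors of the medial cortex, had log2 0.42 and 0.65 (limma adjusted p = 0.321 and 0.375), and in both the groups did not overlap. Lhx2, a LIM homeobox gene needed for cortical and hippocampal fate, had log2 0.22 and overlapped.

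**Figure D4:**
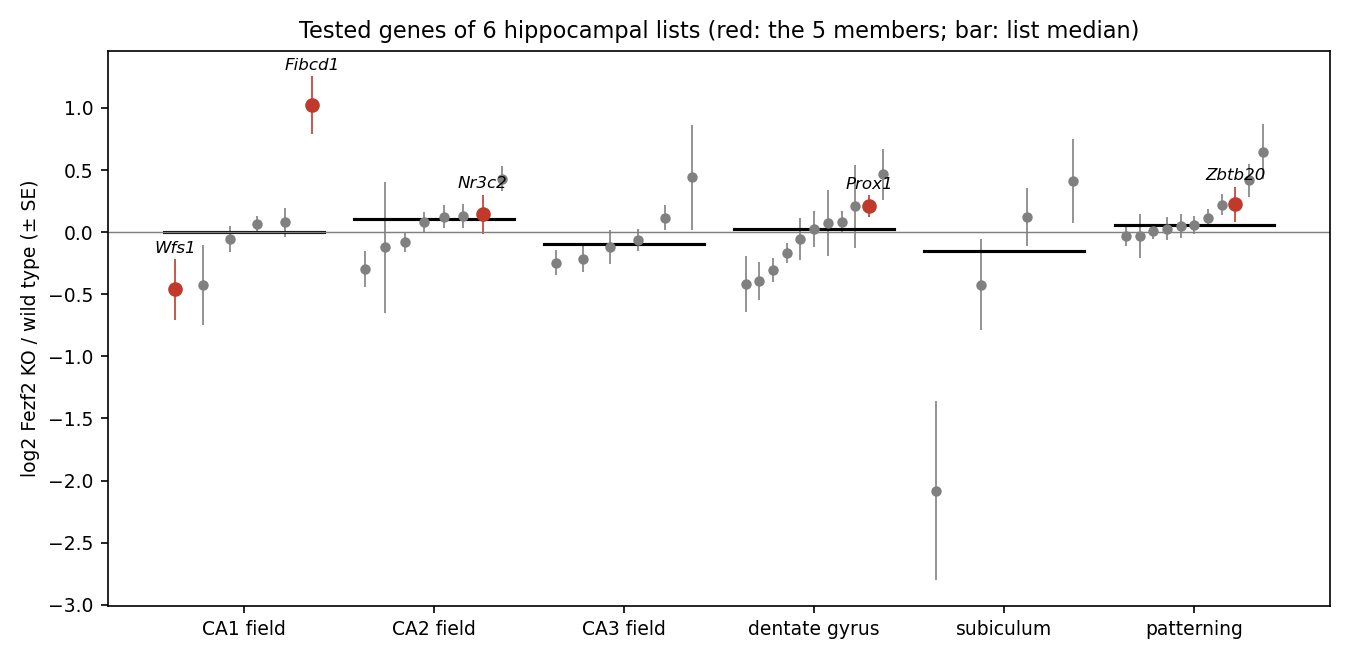
Log2 ratio of Fezf2 KO to wild type (y axis, ± SE from limma) for the 46 tested entries of 6 hippocampal lists, ordered by value within each list, with the 5 members in red and a black bar at each list's median. List medians lie between -0.15 and 0.10, Fibcd1 is at 1.02 and the lowest point is Nts at -2.08.

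Nr3c2 and Wfs1 were also set beside the pathways they act in. Of 12 tested genes of corticosteroid receptors, enzymes and targets, Nr3c2 included, 0 rose and 0 fell in limma. Among all tested entries 0.404% were higher and 0.308% lower. The median log2 difference of the 12 genes was -0.011. Nr3c1, the glucocorticoid receptor, had 515, 529 and 559 normalised reads in the Fezf2 KO libraries 1 to 3, compared with 495, 568 and 541 in wild type libraries 1 to 3, and was named after its values were seen as the partner of Nr3c2. Crhr1, a receptor of corticotropin releasing hormone, had 1367, 1205 and 1466 normalised reads in the Fezf2 KO libraries 1 to 3, compared with 942, 1052 and 1042 in wild type libraries 1 to 3. Its groups did not overlap, and it missed the limma threshold (log2 0.41, adjusted p = 0.114) while passing DESeq2 (adjusted p = 0.0033). Hsd11b2, which inactivates corticosterone, had log2 0.66 with 6.98 to 15.9 normalised reads, and Klf9, a target of steroid receptors, had -0.17.

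Of 14 tested genes of the endoplasmic reticulum stress response, Wfs1 included, 0 rose and 0 fell in limma (0.404% and 0.308% of all tested entries did). Of the 14 genes 0 had an unadjusted p under 0.05 (9.03% of all tested entries did), and the median log2 difference was -0.034. Wfs1 had the widest difference among them. Ddit3, the stress-induced factor CHOP, had log2 -0.12 and Ern1, the sensor IRE1, had 0.14, with limma adjusted p of 0.755 and 0.758.

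Markers of other cells that use the members were measured in the same libraries. Of 8 genes of caudal ganglionic eminence interneurons, Prox1 included, 1 rose and 0 fell, against 0.404% of all tested entries higher and 0.308% lower. Sp8, a zinc finger factor of these cells, had 1460, 1527 and 1409 normalised reads in the Fezf2 KO libraries 1 to 3, compared with 1159, 1090 and 1012 in wild type libraries 1 to 3 (log2 0.43, limma adjusted p = 0.0457), and it did not pass in edgeR or in limma with any 1 library left out. Htr3a, a serotonin receptor channel, had log2 0.53 (limma adjusted p = 0.0545) and Cnr1, the cannabinoid receptor, 0.20 (adjusted p = 0.167). DESeq2 called Sp8, Htr3a and Cnr1 higher (adjusted p = 8.5e-05, 0.000803 and 0.0213), with 2.3% called among all entries. Of the 8 genes 7 had a higher mean log2 value in Fezf2 KO, and Vip (log2 -0.59) a lower one. Among all 17557 tested entries 8962 had a higher mean log2 value in Fezf2 KO. Nr2f2 (0.10), Adarb2 (0.0083) and Vip had overlapping groups. The summed value of the list was 17439 to 17848 in Fezf2 KO and 14877 to 16042 in wild type, and 0 genes were at 0. Cnr1 alone had 8471 to 9280 in Fezf2 KO and 7692 to 7971 in wild type. The mean of centred log2 values overlapped, at -0.087 to 0.15 in Fezf2 KO and -0.18 to 0.086 in wild type. The part of these cells in the Prox1 values was not tested.

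Of 11 astrocyte genes, Zbtb20 included, 0 rose and 0 fell (0.404% and 0.308% of all tested entries did). Of the 11 genes 8 had a lower mean log2 value in Fezf2 KO, while 8962 of all 17557 tested entries had a higher one. The list median was -0.24, so the list and Zbtb20 (0.22) lay on opposite sides of 0. Agt had log2 -1.59, Id3 -0.24 and Gja1 -0.68, none passing, and the summed value was 17813 to 21311 in Fezf2 KO and 21946 to 22143 in wild type. Of 7 thalamic neuron genes 1 rose, Slc17a6, the glutamate transporter VGLUT2 (log2 0.53, limma adjusted p = 0.0276), a call that was lost with any 1 library left out. The summed value was 3575 to 3926 in Fezf2 KO and 3265 to 3681 in wild type. Lhx9 (0.81), Gbx2 (-0.83) and Ntng1 (0.21) did not pass. Of 5 Cajal-Retzius cell genes, which mark neurons at the hippocampal fissure as well as in layer 1, 0 changed, and Calb2 (-0.069), Lhx5 (0.11) and Lhx1 (0.057) had overlapping groups. Their summed value was 6578 to 9104 in Fezf2 KO and 7045 to 7638 in wild type. Of 5 tested choroid plexus genes 0 passed, with log2 4.68 for Ttr, 1.94 for Folr1 and 0.95 for Clic6, all highest in Fezf2 KO 1, and without that library Ttr passed (log2 2.33, limma adjusted p = 0.0173). Of 7 cortical glutamatergic neuron genes 0 passed, with log2 0.15 for Neurod6, a transcription factor of these neurons.

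The genes whose pattern over the 6 libraries was most like each member were found by Pearson's r of log2(value + 1) among 12264 known genes with a mean of at least 50. Nearest to Fibcd1 were Dock3 (r = 0.988), Tmem222 (0.981) and Zbtb46 (0.981). Dock3, a guanine nucleotide exchange factor of neurons, had 8469, 9580 and 9614 normalised reads in the Fezf2 KO libraries 1 to 3, compared with 7910, 8502 and 7955 in wild type libraries 1 to 3, a much narrower range than that of Fibcd1. Nearest to Wfs1 were Nrsn1 (r = 0.990), Sfrs18 (0.987) and Slc35f3 (0.985). Nrsn1, neurensin 1, had 500, 815 and 563 normalised reads in the Fezf2 KO libraries 1 to 3, compared with 883, 861 and 694 in wild type libraries 1 to 3. Gstm3, Scrg1 and Zfp597 were nearest to Prox1 (r from 0.983 to 0.990), Smcr8, Nedd9 and Klf11 to Zbtb20 (0.984 to 0.991), and Fam155a (0.991) and Fam69c (0.981) to Nr3c2. With 6 libraries that share genotype and litter such values are common, since 49 to 185 genes had an r over 0.9 with each member, and none of these neighbours passed limma.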

How the data were processed

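Per the labels, TruSeq libraries were read on a Genome Analyzer II. Bowtie, STAR, DESeq and the build mm9 appear in the submitters' processing notes, without versions, and no source used here says how reads were counted. The deposited signal is a read count per gene divided by a size factor per library. In every library 100% of values were whole multiples of the smallest step within 0.006, which gave back the reads. The limma intervals rest on the spread between libraries, which includes counting error.

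Entries with at least 10 normalised reads in at least 3 libraries were tested (17557) with limma 3.58.1 in R 4.3.3 on log2(value + 1), variance trend on, genotype as the only term, two-sided, Benjamini-Hochberg adjusted p under 0.05; the log scale understates folds of low genes. EdgeR 4.0.16 (quasi-likelihood, TMM or RLE factors) and DESeq2 1.42.0 ran on the recovered reads. Other alternatives were a pseudocount of 0.5, no filter, litter as a block, each library left out, litter m1 by itself, and the striatal mean as a covariate. The limma fit with genotype alone, edgeR with TMM factors and DESeq2 were tested on simulated counts, and the other settings were not. Libraries of the same litter had correlations between genotypes of -0.128 to 0.247 in their deviations from the genotype means over 14913 genes, and pairs from other litters -0.201 to -0.056. No pair of libraries matched within sampling noise (chi-square per degree of freedom 8.86 to 33.0). Members and lists were chosen with earlier results of these data known. Genes named were the members, Fezf2, every changed gene of the 15 lists and up to 3 others per list by smallest p, and the 3 nearest genes of each member; a few genes that this rule names are not reported here.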

Additional observations from a re-analysis of the deposited data

Results flagged for a closer look

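Zbtb20 was picked out because its difference between genotypes had opposite signs in the litters. In litter m1 both Fezf2 KO libraries were above both wild type libraries (log2 difference 0.36), and in litter m2 the Fezf2 KO library was below the wild type library (log2 difference -0.052). Litter m2 has 1 library per genotype, so the difference between litters was not tested.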

How the results depend on the processing

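Of 70 values of the 5 members under 14 alternatives, 67 kept their direction and their side of the threshold. Fibcd1 passed with DESeq2 (log2 1.04), so that 1 of the 5 members and, with Amigo2, 2 field genes were called higher. DESeq2 called 2.3% of all entries. Fibcd1 also passed without Fezf2 KO 1 (1 member and 1 field gene called). Leaving out each library in turn gave log2 0.86 to 1.29 for Fibcd1, 0 to 1 members called and 0 to 1 field genes higher. Wfs1 changed sign with the striatal covariate (log2 0.30), which was itself lower in every Fezf2 KO library than in every wild type library. The number of genes changed was 125, against 403 with DESeq2, 25 in litter m1 alone, 35 with the striatal covariate and 60 to 128 with each library left out in turn; fewer libraries or residual degrees of freedom alone can lower it. With litter as replicate block Fibcd1 had log2 1.02 (limma adjusted p = 0.184), and the block changed no call among the members or field genes. Sp8 did not pass without a filter, with edgeR, or without any 1 library. Among Fezf2 KO libraries the spread of every member exceeded its counting error. Among wild type libraries that of Zbtb20 (3.83% of the mean, counting error about 6.03%) and of Nr3c2 (4.32%, counting error about 5.10%) did not. The causes of these shifts were not tested.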
